A study of Mus musculus with 16 samples.

Results

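The 10 genes described here are ligands, receptors and inhibitors of the interleukin-1 (IL-1) family, taken by name from the 47069 genes of the count table. They are the ligands Il1a, Il1b, Il18 and Il33, the receptor antagonist Il1rn, the receptor chains Il1r1, Il1rap and Il1rl1, and the decoys Il1r2 and Il18bp. RNA was sequenced from macrophages grown out of the bone marrow (BMMs) of C57BL/6 mice aged 8 to 10 weeks and kept until day 7 in L929-conditioned media, primed overnight with IFNγ (10 ng/mL) and activated with Salmonella LPS (100 ng/mL) and immune complexes (ICs, ovalbumin bound by rabbit IgG). RNA was taken 1 hr after activation in the presence of the gamma-secretase inhibitor (GSI) DAPT (25 μM) or of the vehicle control DMSO (0.01%). Each group held 2 replicates, and each replicate was deposited as 4 runs. Both groups were therefore IFNγ-primed and LPS/IC-activated, and BMMs without LPS or without ICs were not analysed here. The comparison asked which mRNAs differ when gamma-secretase, the enzyme that releases the active intracellular part of Notch receptors, is inhibited. Gamma-secretase also cleaves other membrane proteins, and this comparison cannot tell effects through Notch from effects through those.

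IL-1α and IL-1β, encoded by Il1a and Il1b, bind the receptor IL-1R1, which then recruits the shared chain IL-1RAP and signals through MyD88 and IRAK kinases to NF-κB. The antagonist encoded by Il1rn occupies IL-1R1 without signalling, the decoy receptor encoded by Il1r2 binds IL-1 without signalling, and the protein encoded by Il18bp binds and neutralizes IL-18. In macrophages, Il1b is a classic LPS-induced gene whose inactive precursor protein is cut by caspase-1 in the inflammasome, so that mRNA is only the first step towards the secreted cytokine.

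Both IL-1 agonist genes fell with GSI, Il1b by 3.27-fold and Il1a by 2.11-fold, whereas the antagonist Il1rn, read from the same cells, did not pass the test (1.09-fold lower). Among the receptors and decoys, Il1r2 and Il1rap fell by 1.83-fold and 1.61-fold. Il18bp rose by 1.14-fold, a marginal call that held in 4 of 11 alternative fits. Il18 and Il1r1 did not pass the test, and Il33 and Il1rl1 were too low to be tested. In total, 8 of the 10 genes had enough counts, 4 fell, 1 rose and 3 were not called at a false discovery rate (FDR) under 0.05 in edgeR's quasi-likelihood test. Over all 13211 tested genes, 40.8% were called, 21.9% as lower and 19.0% as higher with GSI, beside 4 of 8 tested members lower and 1 of 8 higher. The median log2 fold change of the 8 tested members was -0.64, and that of all tested genes was 0.01.

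The start regions of the agonist and antagonist genes are shown because these genes sit on the same chromosome yet changed by different amounts. Each line gives the 250 bases before the gene's start in RefSeq (GRCm38.p6, 5′ to 3′ on the gene's strand), with capitals marking a TATA box (TATAAA), an AP-1 motif (TGANTCA) or the core of the motif bound by RBPJ (TGGGAA), the DNA-binding partner of Notch, each searched on both strands. Il1a and Il1b lie next to each other on the minus strand of chromosome 2, and Il1rn lies far from them on the plus strand, with 3 annotated starts of which one is shown.
Il1b, chr2:129371140-129371389, minus strand: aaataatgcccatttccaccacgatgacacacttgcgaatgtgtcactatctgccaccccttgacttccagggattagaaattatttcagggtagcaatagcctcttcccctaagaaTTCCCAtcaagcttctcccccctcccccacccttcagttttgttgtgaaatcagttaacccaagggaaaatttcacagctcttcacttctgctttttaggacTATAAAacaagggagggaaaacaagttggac
Il1a, chr2:129309973-129310222, minus strand: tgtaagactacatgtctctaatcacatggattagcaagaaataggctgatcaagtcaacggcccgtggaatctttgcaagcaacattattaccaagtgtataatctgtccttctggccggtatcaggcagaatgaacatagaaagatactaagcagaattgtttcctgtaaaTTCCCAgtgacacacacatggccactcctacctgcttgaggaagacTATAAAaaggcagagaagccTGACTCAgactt
Il1rn (its second listed start), chr2:24345041-24345290, plus strand: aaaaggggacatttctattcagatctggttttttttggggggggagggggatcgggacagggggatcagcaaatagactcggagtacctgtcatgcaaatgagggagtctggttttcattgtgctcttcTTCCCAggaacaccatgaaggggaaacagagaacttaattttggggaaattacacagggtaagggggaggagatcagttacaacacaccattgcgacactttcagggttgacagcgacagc
The windows of Il1b and Il1a both held TATAAA close to the start, at 26 to 31 bases before it for Il1b and 27 to 32 for Il1a, and none of the 3 Il1rn windows held one. Of 32851 such windows before RefSeq starts, 12.37% held this motif. The RBPJ core was found in all 3 genes, 128 to 133 bases before the start of Il1b, 73 to 78 before that of Il1a and 116 to 121 before this start of Il1rn. It is a short motif that 21.59% of all windows held. An AP-1 motif, present in 6.749% of windows, lay 6 to 12 bases before the start of Il1a and in the first-listed window of Il1rn. The named NF-κB motif (2.131% of windows) was found in none of these windows. No searched motifs overlapped in the windows shown. Among the other members, the only NF-κB match was in a window of Il1r1, and the windows of Il1r2 and Il18bp held none of the 4 motifs. These are letter matches in short windows, and binding of any factor was not measured.

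The 4 libraries, each the sum of 4 runs, held 42694655 to 56932059 counts. Runs of a replicate differed by about the sampling noise, and replicates of a group differed by more. The macrophage label held: all 8 macrophage markers were measured, with a summed level of 12274 to 12480 CPM (counts per 1000000 counts of a library) in DMSO and 9486 to 10411 in GSI. Of these markers 6 fell, including Csf1r and Cd14, and 1 (Mertk) rose. The levels of other cell types were low, with a summed 0.976 to 1.69 CPM over 10 neutrophil markers, 2.92 to 3.64 over 7 mast cell and basophil markers (Cpa3, Mcpt8, Ms4a2, Tpsb2 and Cma1 at 0 counts), 0.124 to 0.209 over 7 fibroblast markers (Col3a1 and Lum at 0) and at most 0.124 over 7 lymphocyte and 4 erythroid markers. A higher sum came mostly from 1 gene for the 6 dendritic cell markers (Clec9a, 174 to 181 CPM in DMSO and 109 to 111 in GSI, with Cd209a and Siglech at 0) and for the 4 endothelial markers (Kdr, 10.3 to 10.5 CPM in DMSO and 30.8 to 33.4 in GSI, with Tek at 0). The endothelial markers went both ways, with Kdr higher, Pecam1 lower (1.39 and 1.71 CPM in DMSO, 0.869 and 0.688 in GSI) and Cdh5 not called. The part of the moving markers in the results was not tested. In such bulk RNA, fewer cells that express a gene and less of its mRNA per cell cannot be told apart. The canonical Notch targets Hes1, Hey1, Heyl, Nrarp and Dtx1 had 0 to 5 counts per library, below the filter on low counts, and gave no check of the inhibitor.

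Il1b stood at 2490.4 and 2228 CPM in the DMSO libraries and at 758 and 686 CPM in the GSI libraries. Both GSI libraries were below both DMSO libraries, and the gap was far wider than the spread within either group. The log2 fold change was -1.71 ± 0.08 (SE, n = 2 per group; edgeR quasi-likelihood FDR = 4.81e-12). By mean CPM, Il1b ranked 34 among the tested genes in DMSO and 208 in GSI. Of all 13211 tested genes, 221 had a lower log2 fold change, but among the 1944 genes averaging at least 100 CPM only 1 did, the cytokine gene Il10 (309 and 357 CPM in DMSO, 79.6 and 110.4 in GSI, log2 fold change -1.81). It was also the only member past the study's second threshold, an absolute log2 fold change above 1.5, which 2.17% of tested genes passed in the lower direction.

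Il1a, the other IL-1R1 agonist, which is active also as an uncut precursor, stood at 585 and 581 CPM in DMSO and at 268 and 285 CPM in GSI. The replicates of each group lay close together and the groups did not overlap. Its log2 fold change was -1.08 ± 0.07 (SE, n = 2 per group; edgeR FDR = 4.19e-10), and its rank by CPM went from 262 to 620. Because Il1b fell further than Il1a, the Il1b share of the summed Il1a and Il1b counts was lower with GSI, at 81.0% and 79.3% in DMSO and 73.9% and 70.6% in GSI. The 95% Wilson intervals of these shares spanned less than 1 percentage point each, for example 73.5% to 74.3% in GSI replicate 1, and cover counting error only. The ratio of Il1b to Il1a counts was 4.26 and 3.83 in DMSO and 2.83 and 2.40 in GSI.

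The antagonist Il1rn stood at 949 and 981 CPM in DMSO and at 895 and 881 CPM in GSI. The groups did not overlap, but the gap was small, with a log2 fold change of -0.12 ± 0.07 (SE, n = 2 per group; edgeR FDR = 0.192). Raw counts per library thus changed from more Il1b than Il1rn to less. Per kilobase of annotated exons, Il1b stayed above Il1rn, with ratios of 7.61 and 6.59 in DMSO and 2.46 and 2.26 in GSI. The ratio of Il1b to Il1rn counts was 2.62 and 2.27 in DMSO and 0.847 and 0.778 in GSI, a difference of -1.59 between the group means of its log2. An exact two-sided permutation test gave p = 0.333, which is the smallest p that 2 against 2 libraries allow. The ratio of Il1a to Il1rn was 0.616 and 0.593 in DMSO and 0.299 and 0.324 in GSI. These are ratios of counts, which also depend on the length of each mRNA, so that a value of 1 does not mark equal numbers of molecules, while the difference between groups does not depend on length.

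**Figure D1:**
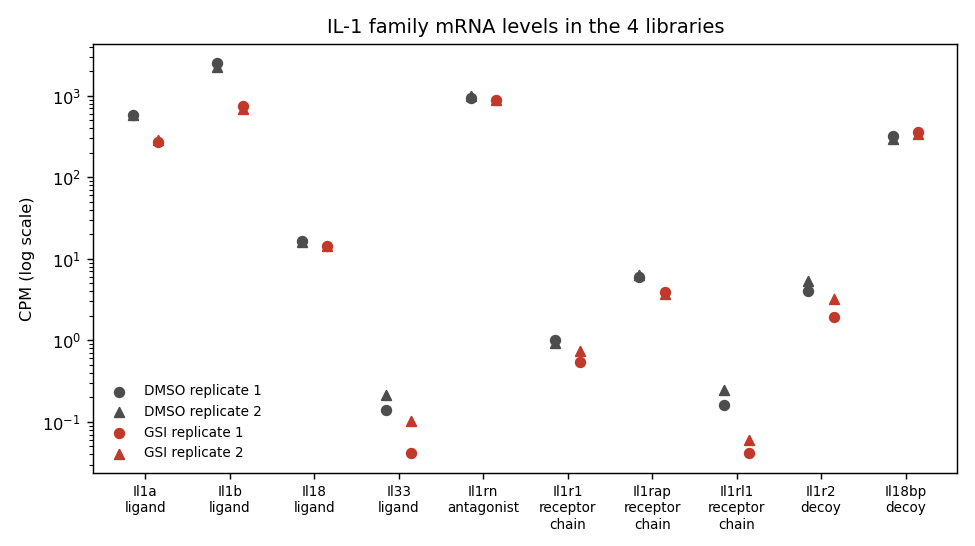
Level of each IL-1 family gene (CPM, log scale) in the 2 DMSO libraries (grey) and the 2 GSI libraries (red), with circles for replicate 1 and triangles for replicate 2. Il1b was at 2228 to 2490.4 CPM in DMSO and at 686 to 758 in GSI, while Il1rn was between 881 and 981 CPM in all 4 libraries.

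**Figure D2:**
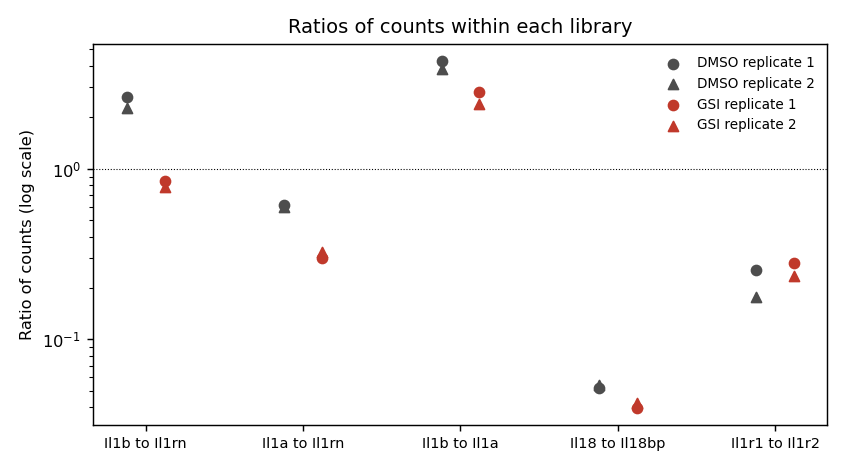
Ratio of the counts of paired IL-1 family genes within each library (log scale), with DMSO in grey, GSI in red and a dotted line at a ratio of 1. The ratio of Il1b to Il1rn was 2.27 to 2.62 in DMSO and 0.778 to 0.847 in GSI, and that of Il1r1 to Il1r2 overlapped between the groups.

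Il18, an inflammasome-processed ligand of its own receptor, was much lower than the IL-1 genes, at 16.6 and 16.1 CPM in DMSO and at 14.3 and 14.4 CPM in GSI. The groups did not overlap, but its log2 fold change of -0.18 ± 0.09 (SE, n = 2 per group) did not pass the test (edgeR FDR = 0.105). Il18bp, which encodes the soluble decoy for IL-18, was at 320.3 and 296 CPM in DMSO and at 359 and 341 CPM in GSI. Both GSI libraries were above both DMSO libraries, by a margin smaller than the spread of DMSO. The call was marginal, with a log2 fold change of 0.18 ± 0.07 (SE, n = 2 per group; edgeR FDR = 0.0482), and it held in 4 of 11 alternative fits, with an FDR between 4.97e-07 and 0.366. Leaving out DMSO replicate 1, DMSO replicate 2 or GSI replicate 1 ended it, with log2 fold changes of 0.24, 0.12 and 0.15. The ratio of Il18 to Il18bp counts was 0.0517 and 0.0543 in DMSO and 0.0399 and 0.0423 in GSI. Il18bp counts thus outnumbered Il18 counts in all 4 libraries.

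Il33, an alarmin of barrier and stromal cells that signals through the receptor encoded by Il1rl1 (ST2), had 6 and 12 counts in DMSO and 2 and 5 in GSI. Il1rl1 had 7 and 14 counts in DMSO and 2 and 3 in GSI. Both genes stayed at or below 0.247 CPM in all 4 libraries, near the 0.0527 to 0.0703 CPM that 3 counts are worth, and neither passed the filter on low counts, which asks for more than 0.204 CPM in 2 libraries. Any difference between the groups rests on these few counts. The ligand and its receptor were thus barely detectable in these BMMs, in both groups.

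Il1r1, which encodes the signalling receptor for IL-1α and IL-1β, was also low, with 44 and 53 counts in DMSO and 26 and 37 in GSI (1.02 and 0.934 CPM against 0.538 and 0.749). The groups did not overlap, but the log2 fold change of -0.59 ± 0.27 (SE, n = 2 per group) did not pass the test (edgeR FDR = 0.0874). It was -0.38 without GSI replicate 1 and -0.85 without GSI replicate 2, and was called in neither fit. Il1rap, the co-receptor shared by the IL-1, IL-33 and IL-36 receptors, was at 6.02 and 6.25 CPM in DMSO and at 3.91 and 3.72 CPM in GSI. Its replicates were close, and it fell with a log2 fold change of -0.69 ± 0.13 (SE, n = 2 per group; edgeR FDR = 0.000195). Il1r2, the decoy receptor, was at 4.02 and 5.29 CPM in DMSO and at 1.92 and 3.20 CPM in GSI. The replicates were spread widely in both groups, replicate 2 being the higher in each, but the groups did not overlap. Its log2 fold change was -0.87 ± 0.19 (SE, n = 2 per group; edgeR FDR = 0.000953), and -0.55 without GSI replicate 1 (FDR = 0.00574). The ratio of Il1r1 to Il1r2 counts was 0.254 and 0.177 in DMSO and 0.280 and 0.234 in GSI, so the groups overlapped. The mean log2 of this ratio was 0.27 higher with GSI, and this difference was not tested.

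All 8 tested members had groups that did not overlap, which was also true of 70.6% of all tested genes. Of these, Il18bp lay higher in both GSI libraries and the others lay lower. The share over all genes was not split by direction, so this is a description only. The untested genes Il33 and Il1rl1 also lay lower, but on few counts. Per kilobase of annotated exons, Il1b was the most abundant member in both groups, at 1237 CPM per kb in DMSO and 379 in GSI (means of 2 libraries). In DMSO it was followed by Il1a (295 CPM per kb), Il1rn (174), Il18bp (102), Il18 (15.8), Il1r2 (2.44), Il1rap (0.540) and Il1r1 (0.154). In GSI the order was the same except that Il1rn (160.4 CPM per kb) stood above Il1a (140.0), Il1a having fallen by more. The order of Il1a and Il1rn in DMSO depends on the length used. With the longest protein-coding transcript in place of all exons, a choice made after seeing the data, Il1rn was at 390.1 CPM per kb and Il1a at 295. With either length, Il1b, Il1a, Il1rn, Il18bp and Il18 stood above Il1r2 and the receptor chains in both groups, and Il33 stood below Il1r2, Il1rap and Il1r1.

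**Figure D3:**
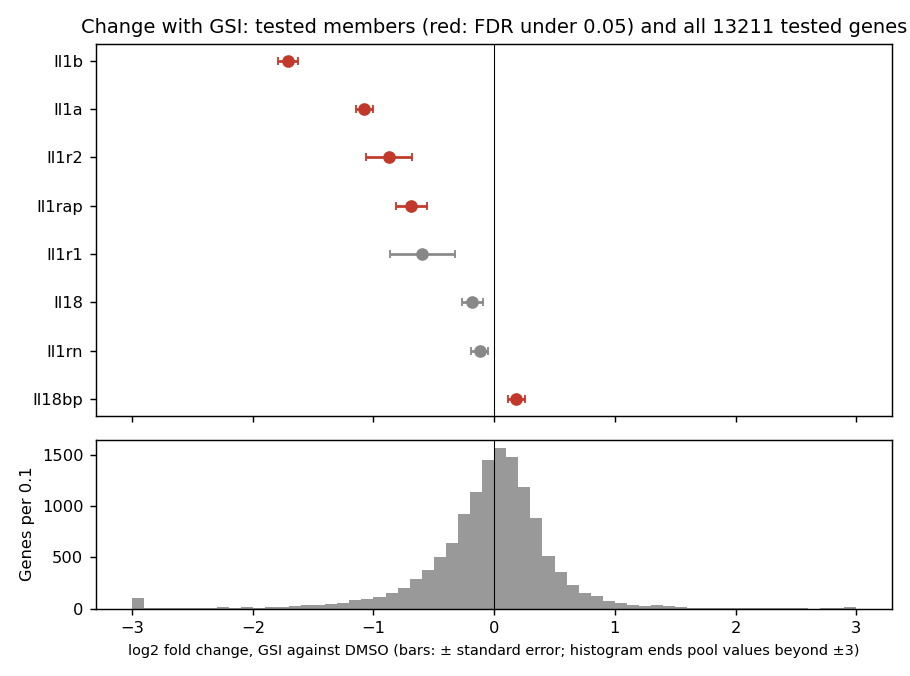
Top, log2 fold change (GSI against DMSO) of the 8 tested IL-1 family genes with the standard error as bars, in red where the edgeR FDR was under 0.05 and in grey otherwise. Bottom, the number of all 13211 tested genes per 0.1 of log2 fold change. Il1b (-1.71) and Il1a (-1.08) lay in the lower tail, and Il18, Il1rn and Il18bp lay within 0.2 of 0.

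Il1a (chr2:129299610-129309972) and Il1b (chr2:129364570-129371139) are neighbours with no other protein-coding gene between them, and Il1rn (chr2:24336853-24351494) has a locus of its own (GRCm38). Ckap2l, a mitotic spindle gene next to Il1a on the side away from Il1b, fell from 26.5 and 26.0 CPM to 7.34 and 9.13, with a log2 fold change of -1.67 ± 0.10 (SE, edgeR FDR = 1.11e-10). F830045P16Rik, the neighbour beyond Il1b, had 12 to 24 counts and was not called (log2 fold change 0.30, FDR = 0.560). Beside Il1rn, Psd4 changed by -0.28 (FDR = 0.00328) and Il1f10 had no counts. The receptor genes Il1r2, Il1r1 and Il1rl1 lie together on chromosome 1 with Il1rl2 between Il1r1 and Il1rl1. There, Map4k4 changed by -0.47 (FDR = 4.59e-05), Il1rl2 by 0.14 (FDR = 0.733) and Il18r1 had no counts. Of the tested neighbours, Ckap2l, Psd4 and Map4k4 were thus called lower, while F830045P16Rik and Il1rl2 had positive changes and were not called. Of all tested genes, 21.9% were called lower.

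Exons of 4 members overlap those of a gene on the opposite strand. Gm14023, which shares 222 exon bases with Il1a, had 92 and 100 counts in DMSO and 17 and 11 in GSI, a log2 fold change of -2.75 ± 0.29 (SE, edgeR FDR = 1.90e-07). Il1bos, antisense to Il1b over 25 exon bases, had 78 and 95 counts in DMSO and 40 and 35 in GSI, a log2 fold change of -1.18 ± 0.23 (SE, edgeR FDR = 0.000312). Both antisense genes fell together with their sense partners. Per 1000 Il1a counts, Gm14023 had 3.66 and 3.03 in DMSO and 1.31 and 0.781 in GSI. Per 1000 Il1b counts, Il1bos had 0.728 and 0.751 in DMSO and 1.09 and 1.03 in GSI. The antisense counts were thus small beside their partners and moved in opposite directions relative to them. The libraries were strand-specific, but the strand setting of the counting is not given in the sources used here, so reads of the 2 strands may not have been fully told apart. Numa1, which overlaps Il18bp by 80 exon bases, changed by -0.57 (FDR = 1.67e-06), opposite to Il18bp, and Gm20319, which overlaps Il1rap by 552 bases, had 0 to 2 counts per library. Genes that lie across a member on the other strand without shared exon bases were Bco2 (log2 fold change -0.21, FDR = 0.264) and Tex12 (0.15, FDR = 0.842) at Il18, and Gm16894, with 1 to 4 counts per library, at Il1r2.

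Of the 52 other genes of the IL-1 pathway listed by role, 45 were tested, of which 18 fell, 5 rose and 22 were not called, with a median log2 fold change of -0.15. Of all tested genes, 21.9% fell and 19.0% rose. In place of 23 genes, 17 were called without DMSO replicate 1, 15 without DMSO replicate 2, 20 without GSI replicate 1 and 23 without GSI replicate 2.

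Of 11 further family members, 4 were tested and 2 fell. Sigirr, an inhibitory receptor of the family, was at 2.18 and 2.29 CPM in DMSO and at 1.36 and 1.62 in GSI (log2 fold change -0.59, edgeR FDR = 0.0165). Il18rap, the accessory chain of the IL-18 receptor, changed by -0.29 (FDR = 0.0232), while the ligand-binding chain Il18r1 had no counts in any library. Il36g, an IL-36 agonist listed under an older symbol, had 10 and 15 counts in DMSO and 19 and 28 in GSI and was not called (log2 fold change 0.93, FDR = 0.0622). Il36b, Il36rn, Il1f10 and Il1rapl1 had no counts.

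All 13 genes of processing and release were tested, of which 5 fell and 3 rose. Those that fell included the inflammasome sensors Nlrp3 (956 and 1031 CPM in DMSO, 646 and 685 in GSI, log2 fold change -0.58 ± 0.07, edgeR FDR = 3.28e-06) and Nlrp1b (-0.55), with P2rx7 (-0.55), which encodes the ATP-gated channel that triggers NLRP3. Nek7, an NLRP3 partner, changed by -0.27 and Casp8 by -0.21. The sensor genes Aim2 (log2 fold change -0.17, FDR = 0.0530), Nlrc4 (0.06, FDR = 0.638) and Mefv (0.11, FDR = 0.392) were not called. Ninj1, whose product ruptures the plasma membrane at the end of lytic cell death, rose from 281 and 297 CPM to 514 and 494 (log2 fold change 0.80 ± 0.07, edgeR FDR = 2.18e-08). Gsdmd, which encodes the pore that lets mature IL-1β out, rose by 0.27 and the adaptor Pycard by 0.20. Casp1, which encodes the IL-1β-cleaving protease, was at 406 and 384 CPM in DMSO and at 408 and 411 in GSI and was not called (log2 fold change 0.05, FDR = 0.589), and neither was Casp4 (0.13, FDR = 0.137), which encodes the caspase that senses intracellular LPS.

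Of the 17 genes of receptor signalling, all were tested, 8 fell and 2 rose. The largest decreases were those of the ubiquitin ligase gene Peli2 (11.6 and 10.5 CPM in DMSO, 7.24 and 6.78 in GSI, log2 fold change -0.65 ± 0.11, edgeR FDR = 4.85e-05), the IκB kinase gene Ikbkb (-0.45) and Irak4 (-0.42), the first kinase recruited by MyD88. The genes that rose were Tab1 (0.39), a partner of the kinase TAK1, and Ikbkg (0.35), which encodes the regulatory subunit of the IκB kinase. The shared adaptor Myd88 stood between 230 and 239 CPM in all 4 libraries, with overlapping groups.

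Of 11 genes that IL-1 or LPS induces, 3 fell and 8 were not called. The chemokine gene Cxcl1 went from 294 and 306 CPM to 206 and 194 (log2 fold change -0.58 ± 0.07, edgeR FDR = 1.28e-06), and Zc3h12a, which encodes an RNase that degrades cytokine mRNAs, changed by -0.43 (FDR = 4.40e-05). Csf3 had 10 and 12 counts in DMSO and 2 and 1 in GSI, and passed the filter on low counts only through the DMSO libraries. A gene that passes in this way had to differ, so nothing is read from its call, which is included in the 3 genes here and in the 18 of the whole pathway. Tnf stood at 7312 and 7688 CPM in DMSO and at 8121 and 7781 in GSI (log2 fold change 0.08 ± 0.08, FDR = 0.400), and Il6 had overlapping groups. Not every LPS-induced cytokine mRNA was thus lower with GSI at 1 hr.

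**Figure D4:**
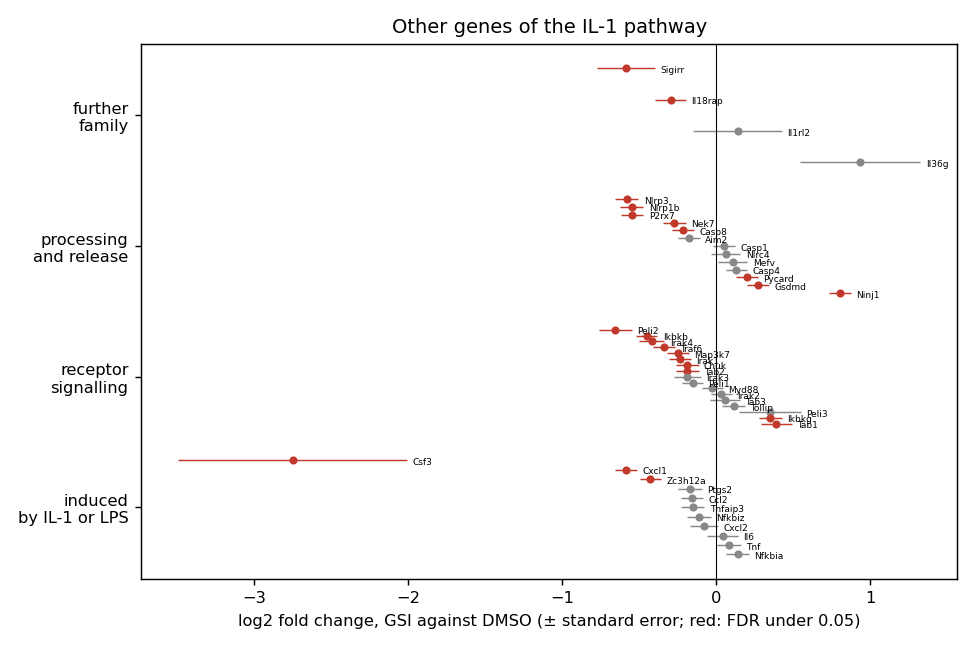
Log2 fold change (GSI against DMSO) of the 45 tested genes of the 4 pathway lists, with the standard error as bars, in red where the edgeR FDR was under 0.05. The processing genes run from Nlrp3 (-0.58) to Ninj1 (0.80), and most of the genes that IL-1 or LPS induces lie near 0.

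The genes whose profiles over the 4 libraries were most like that of Il1b were Gbp2b, Tlr8, Dusp2, Slc9a9 and Hdac9, found among 7580 genes averaging at least 10 CPM by the root mean square difference of mean-centred log2 CPM. Gbp2b, an IFNγ-inducible GTPase gene, was closest, at 325 and 283 CPM in DMSO and at 101 and 97.0 in GSI, with a difference of 0.058. Tlr8, an endosomal RNA sensor gene, followed at 123 and 112 CPM in DMSO and 36.5 and 37.7 in GSI (0.072), and then Dusp2, a MAP kinase phosphatase gene, at 302 and 281 in DMSO and 105 and 92.3 in GSI (0.075). Slc9a9 and Hdac9 differed from Il1b by 0.088 and 0.096. All 5 thus had a drop of about the size seen for Il1b, since with 4 libraries likeness is mostly the difference between the groups. The libraries are shared by all these genes, and likeness over 4 points is a description only.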

How the data were processed

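RNA-seq counts per gene were analysed for 16 runs of 4 libraries (2 DMSO, 2 GSI). The authors prepared strand-specific poly(A) libraries, ran them on a NextSeq instrument, removed adapters with Trimmomatic, aligned them to mm10 with STAR (2.5.0a per the labels, which also list mm9) and counted reads with HTSeq. The deposited values are raw counts. Mode and strand setting of the counting are not given in the sources used here. The labels do not define the runs. Runs of a replicate differed by about the sampling noise (chi-square per degree of freedom 1.01 to 1.03) and were summed to libraries of 42694655 to 56932059 counts. The replicates of a group differed more (14.7 and 16.6), but the labels do not say whether they were separate mice or cultures, so p-values measure the spread between these samples.

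The whole table was fitted with edgeR 4.0.16 in R 4.3.3 (default filterByExpr, TMM, group only, glmQLFTest) with Benjamini-Hochberg adjustment over 13211 genes, after a test on simulated data. The standard error was the size of the log2 fold change divided by the square root of F. CPM used TMM-adjusted library sizes. In a library, 3 counts were worth 0.0527 to 0.0703 CPM. DESeq2 1.42.0 and other settings were tried as alternatives. The authors' methods have GSI or DMSO added overnight before activation, whereas the labels name only 1 hr of activation. Positions are those of GENCODE M21 (GRCm38), which held 46574 of 47069 gene IDs. All 10 members matched RefSeq windows. For 4 IL-36 genes, older symbols were matched through RefSeq. Members, pathway lists, markers and the rules for named genes (all members, up to 3 called genes per pathway list, opposite-strand and neighbouring genes, and the 5 profiles most like Il1b) were chosen with earlier results of these data known. Genes that a count of 5 or fewer needed were named too, and Casp1, Casp4, Aim2, Nlrc4, Mefv, Myd88, Tnf, Il6 and Il36g were added after their values were seen. Neighbours of Il1rn were taken at its own locus, since it lies far from Il1a and Il1b.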

Additional observations from a re-analysis of the deposited data

How the results depend on the processing

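The calls of Il1b, Il1a, Il1rap and Il1r2 held in all 11 alternative fits (other normalization, filters, DESeq2, replicate block, runs as samples and each library left out), with log2 fold changes of -1.79 to -1.63, -1.12 to -1.03, -0.72 to -0.65 and -1.28 to -0.55. Il18bp lost its call with RLE size factors (0.18, FDR = 0.0573), without normalization factors (0.18, FDR = 0.0590), with at least 10 counts in each library (0.18, FDR = 0.0536) and with DESeq2 (0.18, FDR = 0.0549), and without any 1 of the libraries lay at 0.12 to 0.24. Il18 and Il1rn were called only with the 16 runs as samples (-0.18, FDR = 0.00857, and -0.12, FDR = 3.05e-06), where runs of 1 library count as replicates. With an absolute log2 fold change above 1.5 as well, 1 member and 385 genes were called in place of 5 and 5392. Leaving out 1 library gave 4 to 5 members, 4162 to 4978 genes and 15 to 23 pathway genes called, and a log2 difference in the Il1b to Il1rn ratio of -1.69 to -1.48. In these fits a group with 1 library is assumed to vary like the other. Il1rl1, on 2 and 3 counts in GSI, was called without the filter on low counts (-1.97, FDR = 0.0329), and Il33 was not. In fits with a library left out, Il1rl1 could pass the filter only through DMSO replicate 2 (0.247 CPM), where it is highest. A gene that passes in this way had to differ, so nothing is read from its call. Without DMSO replicate 1 (-2.22) it was nonetheless the fifth member counted, in place of Il18bp. Without GSI replicate 1 it lay at -1.74 and without GSI replicate 2 at -2.27, and it was called in neither. Same-numbered replicates deviated together only weakly (Pearson correlation 0.15 over genes, from 2 pairs) and share only a number per the labels. With the replicate block, 6444 genes were called, no member's call changed, and 29 pathway genes were called in place of 23, the 6 gained being Il36g (FDR = 0.0391), Aim2 (FDR = 0.0201), Irak3, Peli1, Ptgs2 and Ccl2. DESeq2 called 18 pathway genes and 4222 of all 13211 tested genes. The 16 runs as samples gave 34 pathway genes and 7582 of 11179 tested genes. The pathway counts thus moved in the same direction as those of all genes.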
